A study of Homo sapiens with 2 samples.

Results

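The genes described here are 9 genes of the machinery that breaks down the matrix around cells: the metalloproteinases MMP1, MMP14 and MMP13, the metalloproteinase inhibitors TIMP1, TIMP2 and TIMP3, and the plasminogen activation genes PLAU, PLAUR and PLAT. They were taken by symbol from the 36601 genes of the count matrices, and every symbol matched exactly 1 gene. The cells were MDA-MB-231, a human triple-negative breast cancer line of mesenchymal appearance. Parental cells (D0) grew with 100 µM methionine. Revertant cells (D21) had spent 21 days without methionine, with 100 µM homocysteine and 1.5 µM vitamin B12 (cyanocobalamin). The medium of both groups was a custom-made RPMI with dialyzed serum. Homocysteine and the vitamin thus came together with the loss of methionine and the 21 days of culture, so their parts cannot be told apart. The study made 1 single-cell library of each, so there was no replicate check and no test between conditions. Every interval below is a 95% interval for counting error only.

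Matrix metalloproteinases are zinc-dependent enzymes that cut extracellular matrix proteins. MMP1 and MMP13 are secreted collagenases that cleave fibrillar collagen, and MMP14 is anchored in the plasma membrane, where it cleaves collagen and activates the precursor of MMP2. TIMP proteins bind the active site of metalloproteinases and block it. In the plasmin system, urokinase (PLAU) and tissue plasminogen activator (PLAT) cut plasminogen into plasmin, and the receptor PLAUR holds urokinase at the cell surface. Both systems are known in breast cancer for their place in invasion.

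The D0 library held 7492 cells with a median of 18908 UMIs, and the D21 library 12487 cells with a median of 12022. UMIs are molecular tags that count single captured transcripts, and levels are given as UMIs of the gene in 1000000 UMIs of the cells, abbreviated CPM. The cells held 91.6% of all UMIs in the D0 library and 91.5% in the D21 library. The 2 sets of cells shared 21 cell barcodes. The line markers VIM, CD44, S100A4, AXL and KRT18 were all above 20 CPM in both libraries, while SPARC, also looked for, was at 0.513 CPM in D0 and 0.148 CPM in D21. The 5 markers set as low in this line (ESR1, PGR, ERBB2, EPCAM and CDH1) summed to 22.3 and 21.5 CPM. Of 12 markers of blood, endothelial and fibroblast cells, CD68 was the 1 above 20 CPM, at 27.3 CPM in D0 and 21.6 CPM in D21.

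MMP1 was higher in the revertant library, and most of the other genes were lower there. MMP1 went from 9.24 to 84.9 CPM, a ratio of D21 to D0 of 9.19, the second highest of all 6867 genes that reached 20 CPM in either library. PLAU, at a ratio of 0.447, and PLAT, at 0.497, were lower by more than 2-fold, and MMP14, at 0.513, lay just outside that limit. TIMP3, PLAUR and TIMP2 were lower by less, with ratios of 0.671, 0.786 and 0.808, and TIMP1 had a ratio of 1.02. MMP13 was close to 0 in both. Of the 8 genes that reached 20 CPM, 1 was thus at least 2-fold higher at D21, against 0.262% of all 6867 genes, and 2 were at least 2-fold lower, against 0.728%. With a limit of 1.5-fold, 1 was higher (1.12% of all genes) and 3 were lower (3.47%). The median ratio of the 6867 genes was 0.998.

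**Figure D1:**
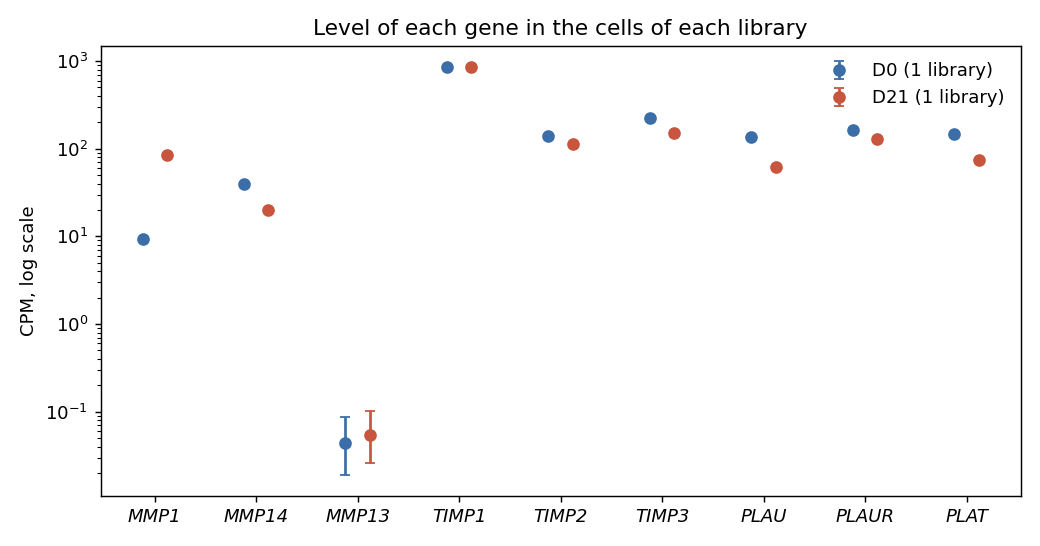
Level of each of the 9 genes, as CPM on a log axis, in the cells of the D0 library (blue) and of the D21 library (red). Bars are exact Poisson intervals for counting error, smaller than most points. MMP1 stands at 9.24 CPM in D0 and 84.9 CPM in D21, MMP13 below 0.1 CPM in both, and the points of PLAU, PLAT and MMP14 lie lower in D21.

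MMP1, the interstitial collagenase (ENSG00000196611), lies on the minus strand of chromosome 11 of GRCh38, from 102789920 to 102798160. The D0 cells held 1691 of its UMIs, a level of 9.24 CPM (8.80 to 9.69), and the D21 cells 15519, a level of 84.9 CPM (83.5 to 86.2). The ratio of 9.19 had an interval of 8.74 to 9.67. The pseudogene WTAPP1 overlaps its exons on the opposite strand in the annotation and was not a row of the matrices.

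The levels of the libraries came apart mostly in the share of cells with the transcript and less in the mean that such a cell held. At least 1 MMP1 UMI was found in 256 D0 cells, or 3.42% (3.02 to 3.85%), and in 2543 D21 cells, or 20.4% (19.7 to 21.1%). With every cell brought to 5000 UMIs, so that depth was equal, the shares were 1.33% (1.08 to 1.61%) and 13.6% (13.0 to 14.3%), a ratio of 10.3. At that depth a cell with the transcript held on average 3.80 MMP1 UMIs in D0 and 3.35 in D21, a ratio of 0.882. By these means, the difference between the libraries at equal depth was in the share of cells with the transcript. The D0 mean rested on few cells, as given below. At the cells' own depth, the median count of a cell with the transcript was 1 UMI in D0 and 3 in D21. Summed over the cells with the transcript, the level was 183 CPM in D0 and 353 CPM in D21. Mean and median thus went in opposite directions.

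Transcripts of MMP1 were packed into few cells in both libraries. If its UMIs had been spread over cells in proportion to their depth, 19.4% of the D0 cells and 65.3% of the D21 cells would have held one. The 1% of cells with the most MMP1 UMIs held 85.7% of them in D0 and 34.0% in D21. The largest count in any cell was 245 UMIs in D0 and 215 in D21. In D0, 6 cells with 50 or more MMP1 UMIs carried 42.7% of all MMP1 UMIs, while in D21 the 28 such cells carried 14.3% and the 395 cells with 10 to 49 UMIs carried 46.6%. The D0 level thus rested on a handful of cells, and the D21 level on many more.

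**Figure D2:**
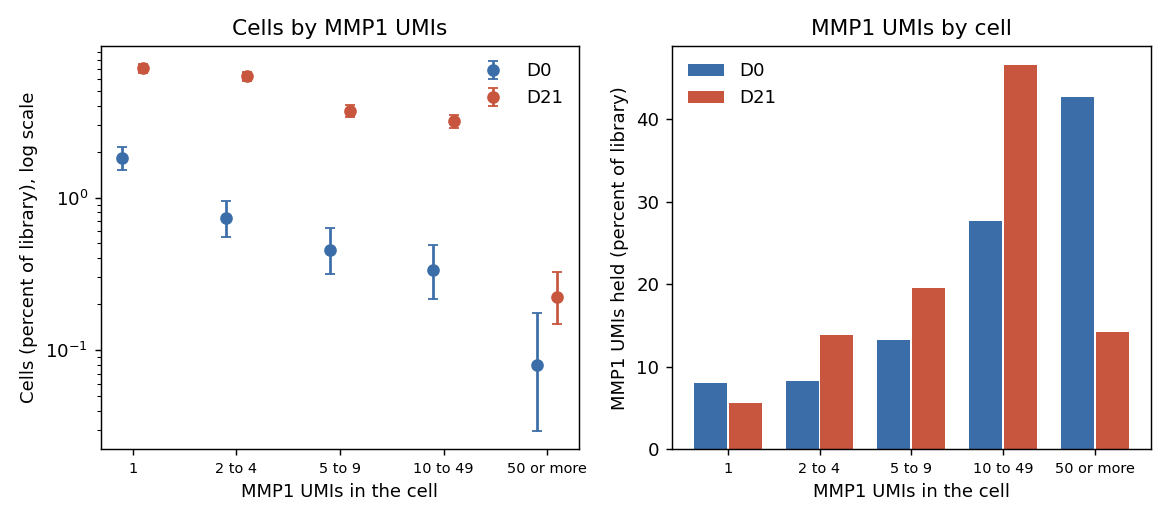
Left, percent of the cells of each library (log axis) that held 1, 2 to 4, 5 to 9, 10 to 49, or 50 or more MMP1 UMIs, with exact binomial intervals for counting error. Right, percent of each library's MMP1 UMIs that those cells held, as bars from 0. Each class of cells was more frequent at D21 (red) than at D0 (blue), from 7.02% against 1.82% of cells at 1 UMI to 0.224% against 0.0801% at 50 or more, while the cells of 50 or more UMIs held 42.7% of the MMP1 UMIs in D0 and 14.3% in D21.

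The variance between cells beyond counting, expressed as a squared coefficient of variation at 5000 UMIs per cell, was 435 for MMP1 in D0, the highest of the 6867 genes, and 24.5 in D21, the fourth highest. The median over those genes was 0.223 in D0 and 0.220 in D21. Cells at or above 1000 CPM of MMP1 numbered 15 in D0 (0.20%, 0.112 to 0.330%) and 261 in D21 (2.09%, 1.85 to 2.36%). Those cells held 57.1% of the MMP1 UMIs in D0 and 44.7% in D21.

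MMP1 was also present in RNA outside cells. Barcodes with at most 100 UMIs, which hold mainly RNA from outside cells, gave an MMP1 level of 15.2 CPM (12.5 to 18.4) in D0 and 78.6 CPM (71.5 to 86.1) in D21. In the cells it was 9.24 CPM in D0, below that of the free RNA, and 84.9 CPM in D21, near it. If 5% of each cell's UMIs were such RNA, 1.84% of the D0 cells and 5.54% of the D21 cells would hold an MMP1 UMI from it, against 1.82% and 7.02% of cells observed with exactly 1. The part of free RNA in the cells with 1 UMI was not tested. With the cells of each library cut into 4 groups of like size by UMI count, the MMP1 level ran from 4.43 to 19.5 CPM over the D0 groups and from 75.2 to 104 CPM over the D21 groups, so the ranges did not overlap. Among cells of 10000 to 20000 UMIs, 3772 in D0 and 5518 in D21, the level was 13.3 CPM in D0 and 84.2 CPM in D21, a ratio of 6.34.

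MMP14, the membrane-anchored metalloproteinase (ENSG00000157227, plus strand of chromosome 14, 22836557 to 22849027), was at 39.3 CPM (38.4 to 40.3) in D0 and 20.2 CPM (19.5 to 20.8) in D21. Its ratio was 0.513 (0.493 to 0.534). A UMI was found in 53.4% of the D0 cells and 23.0% of the D21 cells, and at 5000 UMIs per cell in 18.4% and 9.72%. Cells that held it at that depth had 1.15 UMIs in D0 and 1.09 in D21, and at so low a level this measure is held near 1, so it does not tell the share of cells from the amount per cell. The share of D0 cells with a UMI was close to the 56.1% that an even spread by depth would give. MMP14 was still uneven between cells, with a squared coefficient of variation beyond counting of 0.440 in D0 and 0.736 in D21. Those values lay above 76.1% and 89.5% of the 6867 genes.

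The collagenase MMP13 (ENSG00000137745, minus strand of chromosome 11, 102942995 to 102955734) gave 8 UMIs in 8 D0 cells and 10 UMIs in 7 D21 cells. Its ratio of 1.25 had an interval of 0.445 to 3.65, and a difference between the libraries was not detectable at this depth.

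TIMP1, a secreted inhibitor of most metalloproteinases (ENSG00000102265, plus strand of chromosome X, 47582313 to 47586789), was at 848 CPM (844 to 852) in D0 and 865 CPM (861 to 870) in D21. SYN1, on the opposite strand over TIMP1, was at 0.147 CPM in D0 and 0.142 CPM in D21. A TIMP1 UMI was found in 99.8% of the D0 cells and 98.7% of the D21 cells. The TIMP1 ratio of 1.02 (1.01 to 1.03) was below 1 under 3 of the 12 other settings tried, with a range of 0.828 to 1.16, so its direction was not settled. The spread of TIMP1 between cells differed more than its level did, since the squared coefficient of variation beyond counting was 0.592 in D0 and 1.60 in D21. In rank among the 6867 genes that was a place above 84.0% of genes in D0 and above 96.9% in D21. Levels of TIMP1 also followed cell depth, from 1169 CPM in the group of D0 cells with the fewest UMIs to 773 CPM in the group with the most, and from 1245 to 761 CPM in D21.

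TIMP2, which also takes part in the activation of MMP2 at the cell surface (ENSG00000035862, minus strand of chromosome 17, 78852977 to 78925387), was at 139 CPM (137 to 140) in D0 and 112 CPM (110 to 114) in D21, a ratio of 0.808 (0.794 to 0.823). Of the 8 genes it varied least between cells, with a squared coefficient of variation beyond counting of 0.180 in both libraries, below the median of all genes. The gene CEP295NL, on the same strand over TIMP2, was at 0.557 CPM in D0 and 0.487 CPM in D21, and the antisense genes AC022966.1 and AC100788.1 were below 0.3 CPM.

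The matrix-bound inhibitor TIMP3 (ENSG00000100234, plus strand of chromosome 22, 32801701 to 32863043) was at 223 CPM (221 to 225) in D0 and 150 CPM (148 to 152) in D21, a ratio of 0.671 (0.661 to 0.682). At 5000 UMIs per cell, 55.0% of the D0 cells and 44.5% of the D21 cells held a UMI of TIMP3. Where it was held, the mean was 2.02 UMIs in D0 and 1.72 in D21. Both values fall with the level at such low counts, so they do not tell the share of cells from the amount per cell. TIMP3 lies within an intron of SYN3 on the opposite strand, which was at 8.58 CPM in D0 and 6.82 CPM in D21.

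PLAU encodes urokinase (ENSG00000122861, plus strand of chromosome 10, 73909177 to 73917497). Its level was 137 CPM (135 to 139) in D0 and 61.4 CPM (60.3 to 62.5) in D21, with a ratio of 0.447 (0.438 to 0.458), and 22 of the 6867 genes had a lower one. A UMI was found in 74.6% of the D0 cells and 44.3% of the D21 cells. At 5000 UMIs per cell the shares were 41.3% and 22.8%, and the UMIs per cell that held any were 1.69 and 1.32. Both values were lower at D21, and at such low counts they do not tell the share of cells from the amount per cell. Cells with 10 or more PLAU UMIs numbered 603 in D0 (8.05%) and 41 in D21 (0.328%). Those counts were not brought to equal depth, and the median was 18908 UMIs per cell in D0 and 12022 in D21. C10orf55, which overlaps PLAU exons on the opposite strand, was at 1.02 CPM in D0 and 0.634 CPM in D21.

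PLAT, tissue plasminogen activator (ENSG00000104368, minus strand of chromosome 8, 42175233 to 42207724), was at 148 CPM (146 to 150) in D0 and 73.4 CPM (72.2 to 74.7) in D21, a ratio of 0.497 (0.486 to 0.507). At 5000 UMIs per cell, 44.1% of the D0 cells and 26.2% of the D21 cells held a UMI, with 1.76 and 1.51 UMIs per cell that held any. Its spread between cells beyond counting was 1.13 in D0 and 1.93 in D21. Unlike PLAU, the PLAT ratio crossed the 2-fold limit with the weighting of cell states, as given below.

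The urokinase receptor PLAUR (ENSG00000011422, minus strand of chromosome 19, 43646095 to 43670547) was at 166 CPM (164 to 167) in D0 and 130 CPM (128 to 132) in D21, a ratio of 0.786 (0.772 to 0.799). At 5000 UMIs per cell the shares of cells with a UMI were 50.5% and 42.9%. Enzyme and receptor thus differed in size of change, with a ratio of 0.447 for PLAU and 0.786 for its receptor.

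Promoter windows, from 250 bases before to 50 bases after a start site, were listed by RefSeq for 5 of the 9 genes (6 windows, GRCh38.p14). The stretches below are shown because they precede genes whose levels differed between the libraries or between cell groups. Capitals mark the GC box GGGCGG on either strand in the MMP14 and TIMP3 stretches, and the AP-1 motif TGAGTCA in the PLAUR stretch. The MMP14 stretch is chr14:22836335-22836556 on the plus strand, the TIMP3 stretch is chr22:32801455-32801700 on the plus strand, and both end before the annotated first exon. The PLAUR stretch is chr19:43670338-43670366 read on the minus strand, and its motif begins 186 bases before the RefSeq start site, within exons annotated for longer PLAUR transcripts.
MMP14: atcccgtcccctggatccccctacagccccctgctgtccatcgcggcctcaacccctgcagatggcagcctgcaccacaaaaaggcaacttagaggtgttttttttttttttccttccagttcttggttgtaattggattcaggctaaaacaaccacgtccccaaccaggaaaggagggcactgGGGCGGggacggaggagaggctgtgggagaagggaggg
TIMP3: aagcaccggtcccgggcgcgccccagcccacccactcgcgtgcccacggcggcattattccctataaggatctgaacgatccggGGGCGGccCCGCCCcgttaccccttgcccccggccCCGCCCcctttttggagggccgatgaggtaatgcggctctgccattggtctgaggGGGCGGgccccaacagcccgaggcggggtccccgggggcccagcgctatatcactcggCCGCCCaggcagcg
PLAUR: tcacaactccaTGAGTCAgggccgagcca
The AP-1 motif, on either strand, was in 1 of the 6 windows, that of PLAUR, and in 4.95% of all 35116 windows. GC boxes were in 4 of the 6 windows and in 45.0% of all. The TATA motif TATAAA was in 0 of the 6 and in 11.5% of all, and the core of the interferon-stimulated response element, 2 copies of GAAA with any 2 bases between them on either strand, in 0 of the 6 and in 3.57% of all. These letters describe the windows and are not shown to be bound.

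Cells of this line differ along a state axis, with AGR2, SPANXB1, SOX4 and CST1 at one end and CEMIP, SAA1, SAA2 and NNMT at the other. These 8 genes came from an earlier clustering of the same cells, which all genes entered, so levels along the axis are a description. Cells with at least 5 UMIs of the 8 genes were put on the AGR2 side if under 25% of those UMIs came from the CEMIP end, on the CEMIP side if over 75% did, and otherwise between. The AGR2 side held 4208 cells in D0 and 3713 in D21, and the CEMIP side held 1447 and 4858. The cells between numbered 550 and 1131, and 1287 and 2785 had too few of these UMIs to be placed. Within 0.05 of a border of the axis lay 249 D0 cells and 542 D21 cells. The median UMI count was 17099.5 on the AGR2 side and 23598 on the CEMIP side in D0, and 44732 in the cells between. In D21 it was 10448 on the AGR2 side, 13877.5 on the CEMIP side and 20502 between, and the cells between thus had the highest median in both libraries. Depth moved with the classes, and doublets were not called, so the part of either in the classes and levels was not tested.

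Of the 8 genes, 7 were lower on the CEMIP side than on the AGR2 side in D0, beyond counting error. Their ratios ran from 0.868 for TIMP2 to 0.261 for MMP1. The share of all genes below a ratio of 1 along the axis was not counted, so this count has no background. In D21 the same comparison ran from 0.957 for TIMP2 to 0.169 for MMP1. TIMP3 went the other way, at 1.18 (1.15 to 1.21) in D0 and 1.06 (1.03 to 1.10) in D21. MMP1 was at 13.3 CPM on the AGR2 side and 3.47 CPM on the CEMIP side in D0, and at 157 and 26.5 CPM in D21. PLAUR was at 205 and 94.4 CPM in D0 and at 180 and 95.3 CPM in D21. PLAT was at 187 and 92.7 CPM in D0, and the gap was wider in D21, at 133 and 39.4 CPM. Among 7140 genes tested along the axis in D0, 2.51% were at least 2-fold lower on the CEMIP side, and among 6901 in D21, 2.64%. By that limit MMP14, PLAUR and PLAT were lower in D0, where MMP1 reached 20 CPM on neither side, and MMP1, MMP14 and PLAT were lower in D21. With a limit of 1.5-fold, 5 of the 7 genes that reached 20 CPM were lower in D0, against 5.63% of all genes tested. In D21 it was 5 of 8, against 6.06%.

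**Figure D3:**
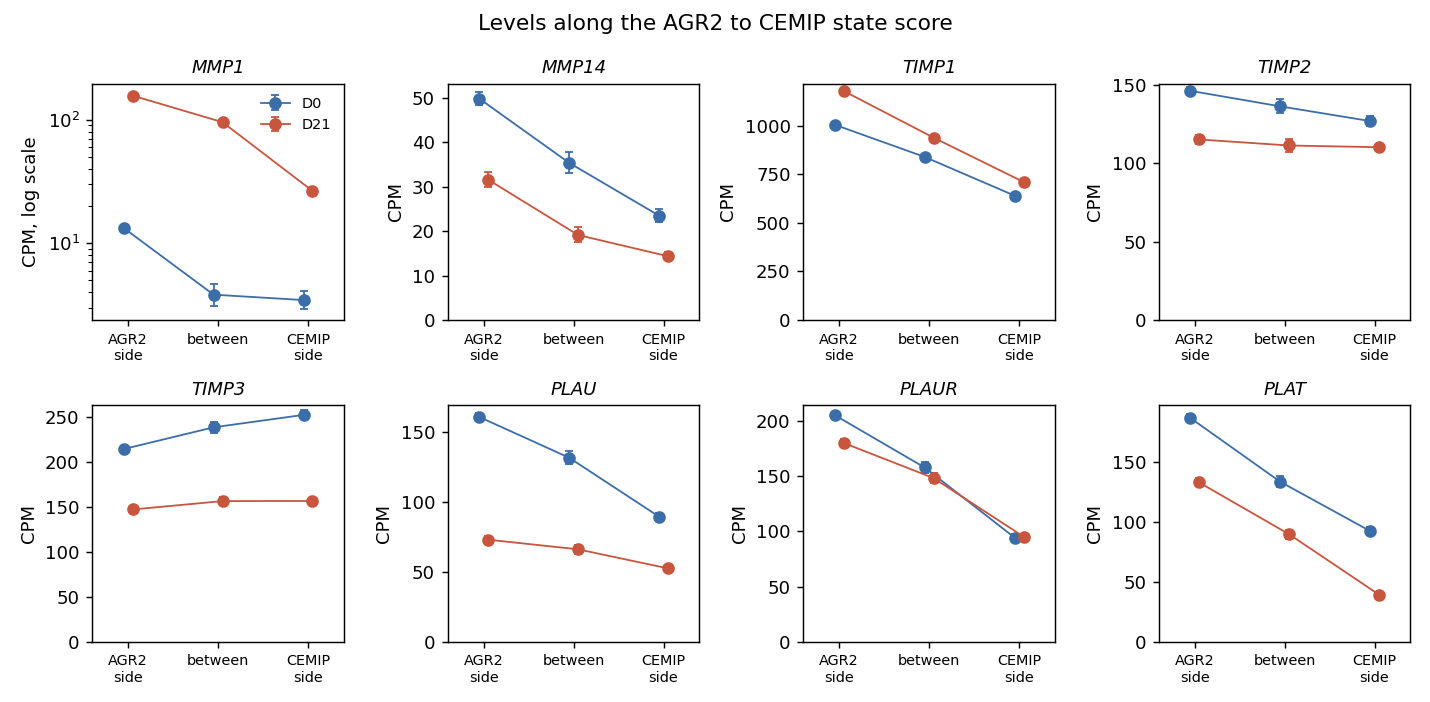
Level of 8 genes, as CPM, in cells of the AGR2 side, between, and of the CEMIP side, in the D0 library (blue) and the D21 library (red), with exact Poisson intervals for counting error; the MMP1 axis is a log axis and the others start at 0. MMP1 in D21 goes from 157 to 26.5 CPM along the axis, PLAUR from 180 to 95.3 CPM, and TIMP3 is slightly higher at the CEMIP end in both libraries.

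The difference of MMP1 between the libraries was present in each class of the axis. The ratio of D21 to D0 was 11.8 (11.1 to 12.5) on the AGR2 side, 24.9 (20.3 to 30.7) between, 7.64 (6.44 to 9.12) on the CEMIP side and 12.4 (10.8 to 14.2) in the cells not placed. The class between rested on 100 MMP1 UMIs in D0. At 5000 UMIs per cell, 1.42% of its D0 cells and 18.7% of its D21 cells held an MMP1 UMI. Of the cells at 1000 CPM or more of MMP1, 12 of the 15 in D0 and 125 of the 261 in D21 were on the AGR2 side, and 100 of the 261 had too few UMIs of the axis genes to be placed. On the AGR2 side, 0.285% of the D0 cells and 3.37% of the D21 cells reached that level. Of the cells not placed, 0.155% did in D0 and 3.59% (2.93 to 4.35%) in D21, so the AGR2 side did not stand apart from them in D21. The shares were 0% and 1.77% between, and 0.0691% and 0.329% on the CEMIP side.

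For PLAT the class mattered to the call. Its ratio was 0.711 (0.691 to 0.732) on the AGR2 side, 0.672 (0.637 to 0.709) between and 0.426 (0.406 to 0.446) on the CEMIP side, and it was 0.651 when the classes were given the same weight in both libraries. PLAU was lower in every class, with ratios of 0.454 on the AGR2 side, 0.502 between and 0.587 on the CEMIP side, and 0.476 with equal weights. MMP14 was at 0.634, 0.541 and 0.611 in the same order. The PLAUR ratio was 0.877 (0.855 to 0.900) on the AGR2 side and 1.01 (0.971 to 1.05) on the CEMIP side, where no difference was detectable. TIMP1 was above 1 in all classes, from 1.11 to 1.17, and TIMP3 below 1 in all, from 0.621 to 0.689.

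Some cells of both libraries carried a burst of antiviral transcripts. They were taken as cells with at least 5 UMIs in 10000 from IFIT1, IFIT2, IFIT3 and OASL, which are induced by interferon and viral RNA sensing, and numbered 311 in D0 (4.15%) and 497 in D21 (3.98%). PLAUR was at 389 CPM (376 to 403) in those D0 cells and at 155 CPM (153 to 157) in the others, a ratio of 2.51 (2.41 to 2.60). In D21 it was at 302 CPM (290 to 315) against 123 CPM (121 to 124), a ratio of 2.46 (2.36 to 2.57). PLAUR was the 1 gene of the 9 at least 2-fold higher in the burst cells, a size reached by 1.45% of the 6887 genes tested in D0 and 1.69% of the 6814 in D21. The median UMI count was 19766 in the burst cells and 18869 in the others in D0, and 12922 and 11989.5 in D21, so depth differed little between them.

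Apart from MMP1 and the barely detected MMP13, the other genes differed less in the burst cells. TIMP1 was 1.56-fold higher in both libraries, at 1287 against 828 CPM in D0 and 1320 against 845 CPM in D21. PLAU had a ratio of 1.38 (1.31 to 1.46) in D0 and 1.20 (1.10 to 1.31) in D21. The MMP1 level was lower in them, with 25 UMIs and a ratio of 0.328 (0.212 to 0.486) in D0, and a ratio of 0.486 (0.434 to 0.543) in D21. The share of D0 cells with an MMP1 UMI was not lower, at 4.18% (2.24 to 7.04%) of the burst cells and 3.38% of the others. Few cells carried most of the D0 MMP1 UMIs, as given above, and the interval does not cover that spread. In D21 the shares were 16.3% and 20.5%. At least 2-fold lower in the burst cells were 0% of the genes in D0, where MMP1 was under 20 CPM, and 0.0147% in D21, which was MMP1 alone. For MMP14 the intervals of both ratios held 1.

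**Figure D4:**
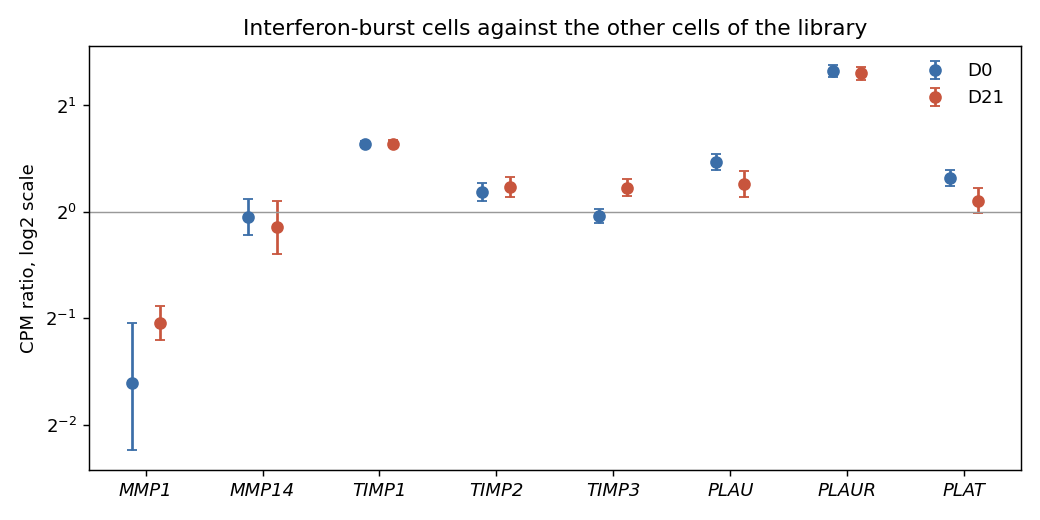
Ratio of the level in antiviral-burst cells to that in the other cells of the same library, on a log2 axis, for 8 genes in D0 (blue) and D21 (red), with exact intervals for counting error and a line at 1. PLAUR stands at 2.51 and 2.46, TIMP1 at 1.56 in both, and MMP1 below 1 at 0.328 and 0.486. The D0 ratio of MMP1 rests on 25 UMIs in the burst cells, and its interval does not cover the spread between cells.

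Correlations between pairs of the genes across cells were weak. Pearson's r of counts at 5000 UMIs per cell, computed across cells of 1 library that share that library and its medium, ran over the 28 pairs without MMP13 from -0.05 to 0.15 in D0 and from -0.02 to 0.11 in D21. Counting noise at these low counts pulls r towards 0. Along the state axis above, 7 of the 8 genes were lower at the same end, a count without a background over all genes. Among 6364 genes of at least 20 CPM in both libraries, 3 of the 9 genes had partners with an r of 0.2 or more in both. TIMP1 was most like S100A6 (0.43 in D0 and 0.33 in D21), CST3 (0.42 and 0.33) and B2M (0.34 and 0.31). PLAT was most like S100A6 (0.26 and 0.29), KRT19 (0.22 and 0.23) and CST3 (0.21 and 0.26). PLAUR was most like IFIT1 (0.27 and 0.26) and ISG15 (0.27 and 0.22), and IFIT1 is among the genes that defined the burst cells, so the 2 results share their counts. S100A6 encodes a calcium-binding protein, CST3 a cystatin that inhibits cathepsins, B2M the light chain of MHC class I, KRT19 a keratin and ISG15 a ubiquitin-like protein induced by interferon.

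Cells at 1000 CPM or more of MMP1 were compared with cells that had no MMP1 UMI. In D21, PLAUR was at 199 against 121 CPM, a ratio of 1.65 (1.52 to 1.78), PLAT at 100.0 against 66.4 CPM, a ratio of 1.50 (1.35 to 1.68), and TIMP1 at 1082 against 835 CPM, a ratio of 1.30 (1.25 to 1.34). PLAU, at 55.5 against 59.4 CPM, had a ratio of 0.935 with an interval of 0.804 to 1.08. The 15 such cells of D0 had 8 PLAU UMIs and a PLAU ratio of 0.181 (0.0782 to 0.357), while TIMP1 in them was at 1974 against 845 CPM, a ratio of 2.34 (2.16 to 2.53). The counting intervals of the ratios did not overlap between the libraries for PLAU, TIMP1, TIMP2 (0.859 in D0 and 1.44 in D21) and TIMP3 (1.63 and 1.19). Those of D0 rested on 15 cells, whose spread was not tested, so no difference between the libraries is drawn from them. TIMP3 was found in 46.7% of these 15 cells and in 85.9% of the D0 cells with no MMP1 UMI. Its higher level in the 15 thus went with a lower share of cells that held it. In D0 the intervals of the MMP14, TIMP2 and PLAT ratios held 1. Of the D21 cells at 1000 CPM or more of MMP1, 47.9% were on the AGR2 side, 38.3% were not placed and 6.13% were on the CEMIP side. The part of the state axis in these ratios was not tested.

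About 50% of D0 cells and 55% of D21 cells (3779 and 6926) had at least 10 UMIs in 10000 from 10 genes of the G2 and M phases, such as TOP2A and CDK1. In D0, PLAU was higher in these cells (151.8 against 114 CPM, a ratio of 1.33), as it was in D21 (71.4 against 44.0 CPM, 1.62). PLAT was lower in them, at 129 against 177 CPM in D0 (0.727) and 60.2 against 96.5 CPM in D21 (0.623), as was TIMP3, with ratios of 0.707 and 0.721. The activators thus stood on opposite sides of this split. MMP1 had a ratio of 0.291 in D0 and 0.543 in D21. Its shares of cells with a UMI at 5000 UMIs per cell were closer, at 1.16% against 1.50% in D0 and 12.6% against 15.0% in D21. Few D0 cells carried most of its UMIs, and how they fell over this split was not tested. Within the cells high in G2 and M genes, the ratio of D21 to D0 was 13.8 for MMP1, 0.470 for PLAU and 0.467 for PLAT. The cells high in these genes had a median of 23044 UMIs against 16037 in D0, and 14291.5 against 9973 in D21, and the part of depth was not tested.

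Beyond the 9 genes, 141 other genes of matrix proteolysis and its regulation were looked up, and 57 of them reached 20 CPM in either library, 83 did not and 1 symbol was not among the rows. Of the 57, 0 were at least 2-fold higher at D21, against 0.262% of all 6867 genes, and 2 at least 2-fold lower, against 0.728%. Below a ratio of 1 were 40 (70.2%), against 50.6% of the 6867 genes. The median log2 ratio of the 57 was -0.22, against -0.003 over all genes. All 20 other metalloproteinase genes looked up were under 20 CPM. Among them were the gelatinases MMP2, with 9 UMIs in D0 and 1 in D21, and MMP9, with 35 and 33, which were added to the named genes after their values were seen. The inhibitors TIMP4, RECK and A2M were under it too.

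Of the plasmin system, the substrate plasminogen (PLG) had 3 UMIs in D0 and 2 in D21. Of the inhibitors, the serpin gene SERPINE2 was at 33.3 CPM in D0 and 35.9 CPM in D21 (ratio 1.08, 1.04 to 1.12), and the serpin gene SERPINB6 was at 180.1 and 166 CPM (0.920, 0.905 to 0.934). Both ratios were closer to 1 than those of PLAU and PLAT. Of 4 plasminogen receptor genes measured, ENO1, also a glycolytic enzyme, went from 1953 to 1168 CPM (0.598), and ANXA2 and S100A10, partners in 1 complex, had ratios of 0.831 and 0.836, and PLGRKT had 1.01.

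Among 7 measured ADAM and ADAMTS genes, which encode related surface and secreted metalloproteinases, ADAM8 went from 29.8 to 14.3 CPM, a ratio of 0.479, and ADAM15 had 0.687, ADAM17 1.27 and ADAMTS6 1.43. All 5 measured proteases of other families were below 1, as were 50.6% of all 6867 genes. The serine proteases HTRA1 and PRSS23 were at 0.526 and 0.670, and the cathepsins CTSL and CTSB at 0.782 and 0.792. Among 8 partners of PLAUR, 5 were below 1 and 3 above. Those furthest from 1, the integrin genes ITGB5, ITGA5, ITGB1 and ITGA3, had ratios of 0.638, 0.660, 0.763 and 0.815. Of 5 inducers and cofactors of metalloproteinases, the chemokine gene CXCL8 went from 13.3 to 25.9 CPM (1.95, 1.86 to 2.05), CD44, a surface anchor for metalloproteinases, had 1.33, TNFSF12 0.830 and BSG, an inducer of MMP1 in neighbouring cells, 0.813.

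Of the 14 measured factors of the AP-1, ETS and related families, which are known to act on metalloproteinase promoters, 3 were above 1 and 11 below. None passed 1.5-fold in either direction. Over all 6867 genes, 50.6% were below 1, 1.12% were at least 1.5-fold higher and 3.47% at least 1.5-fold lower. A count of none among 14 is thus near the share over all genes. JUN went from 127 to 85.9 CPM (0.677), ELK3 from 85.6 to 58.5 CPM (0.684), ETS1 from 126 to 94.6 CPM (0.751) and ETS2 from 15.4 to 22.3 CPM (1.45). Of 11 measured matrix substrates, 8 were below 1 and 3 above. Among those furthest from 1, COL13A1, a transmembrane collagen, went from 161 to 71.2 CPM (0.441). LAMB1, COL6A1 and LAMB3 had ratios of 0.670, 0.681 and 0.706.

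**Figure D5:**
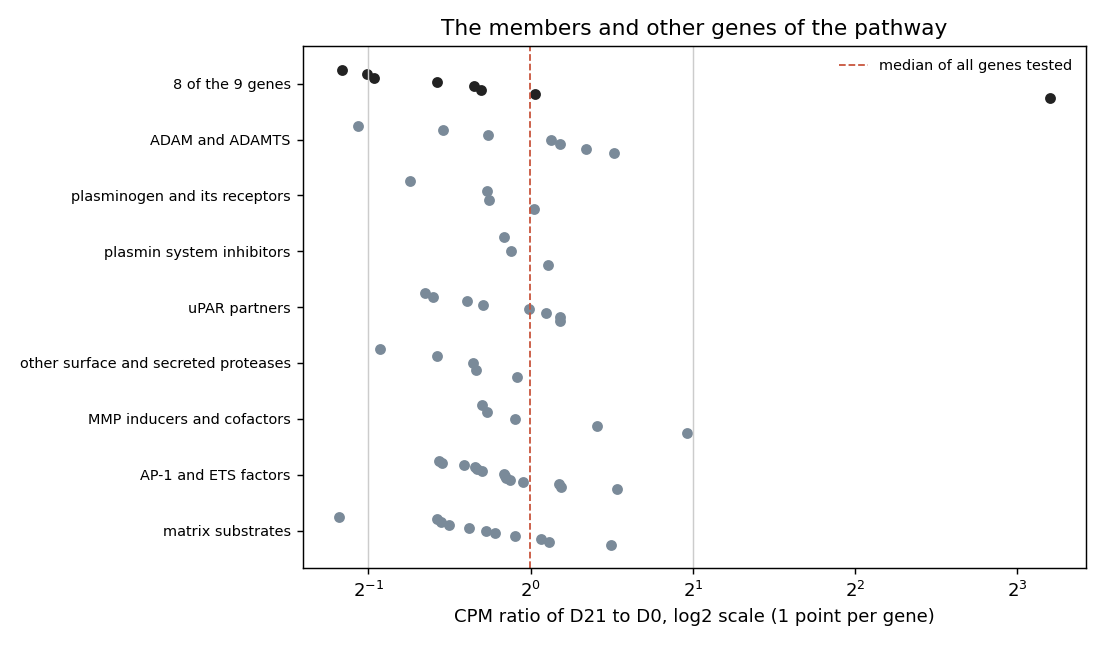
Ratio of the level at D21 to that at D0 on a log2 axis, 1 point per gene, for the 8 measured genes of the 9 (black) and for 57 other genes in 8 groups (grey), with a dashed line at the median of all genes and thin lines at 2-fold lower and 2-fold higher. MMP1, at 9.19, stands apart on the right, and the points left of the 2-fold line are PLAU and PLAT with ADAM8 and COL13A1.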

How the data were processed

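The authors sequenced 1 droplet library (10x Genomics 3' chemistry) per condition and deposited UMI counts per gene and barcode; the file headers name Cell Ranger 4 and the labels GRCh38. Barcodes with at least 9009 UMIs (D0) or 5422 (D21), at least 500 genes and at most 20% mitochondrial UMIs were taken as cells; those minimums are 10% of the 99th percentile of each library's top 5000 barcodes. The last 2 filters removed 11 and 38 barcodes. Doublets were not called. Library totals were 199799447 and 199817213 UMIs. Counts were summed over cells and given as CPM with exact Poisson intervals, shares with Clopper-Pearson intervals and ratios with exact conditional intervals, in scipy 1.17.1 (Python 3.11.15). With 1 library per condition no test was made. A gene was counted as higher or lower if it reached 20 CPM in either group compared and differed at least 2-fold. Shares at 5000 UMIs per cell, spread beyond counting and r were exact expectations under random thinning, and the code was tested on simulated data. The 9 genes are all named; of each further list, the 4 measured genes furthest from a ratio of 1, and measured plasmin inhibitors, are named; 1 item is not reported here. The genes, lists and classes were chosen with earlier results of these data known.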

Additional observations from a re-analysis of the deposited data

Results flagged for a closer look

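Barcodes of 500 UMIs up to the minimum for a cell were used in no comparison, and 4 of the genes had a higher level, with counting intervals apart, in those of the D21 library than in those of the D0 library (3810 and 2843 barcodes). MMP1 was at 79.9 CPM (74.2 to 86.0) in the D21 barcodes and 10.2 CPM (8.13 to 12.7) in the D0 barcodes, close to the levels in the cells of each library. TIMP1 was at 1094 CPM in D21 and 770 CPM in D0, a wider gap than in the cells. The barcodes ran up to the minimum of 9009 UMIs in D0 and of 5422 in D21, so their ranges of depth were unlike. The level of TIMP1 followed depth in the cells, and the part of depth here was not tested. TIMP2 was at 101 and 86.1 CPM and TIMP3 at 140.4 and 117 CPM, both higher at D21 here and lower at D21 in the cells. PLAUR, at 110.3 CPM (103 to 117) in D21 and 99.5 CPM (92.6 to 107) in D0, had overlapping intervals.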

How the results depend on the processing

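The ratios of D21 to D0 and the counts of genes past 2-fold were recomputed under 12 other settings; levels in cell classes, correlations and promoter motifs were not. MMP1 was past 2-fold higher in all 12, at 6.34 among cells of 10000 to 20000 UMIs, 8.45 without the 6% of cells with the most UMIs, 10.3 with the UMI minimum at 20% of the 99th percentile, and 11.96 with the state classes weighted alike. PLAU was past 2-fold lower in all 12 (0.430 to 0.476), PLAT in 9 (0.421 to 0.651) and MMP14 in 2 (0.399 to 0.621). The count of genes at least 2-fold lower was 2, and it was 1 with each cell weighing the same, 1 with CPM taken without mitochondrial and ribosomal protein genes and 1 with state classes weighted alike. It was 3, with MMP14, with the D0 UMI minimum in both libraries and among cells of 10000 to 20000 UMIs. MMP13 was below a ratio of 1 in 2 of the 12. TIMP2, TIMP3 and PLAUR kept their direction in all 12. With a floor of 5 CPM, 46 of 11001 genes (0.418%) were at least 2-fold higher, against 18 (0.262%) at 20 CPM. Shares of cells depend on depth: for MMP14 in D0, 53.4% of cells held a UMI, and 18.4% at 5000 UMIs. The 1 library per condition leaves out any spread between cultures, which was not measured. No paired analysis was possible because each condition has 1 library.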

Other observations

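The stromelysin genes MMP3 and MMP10, related to MMP1 and here named after their values were seen, were far below 20 CPM, and most of their few UMIs lay in cells that also held MMP1. MMP3 had 4 UMIs in 2 D0 cells and 32 UMIs in 16 D21 cells, with up to 9 in 1 cell. Of these, all 4 in D0 and 29 of 32 in D21 were in cells with an MMP1 UMI, which made up 3.42% and 20.4% of the cells. MMP10 had 0 UMIs in D0 and 11 UMIs in 10 D21 cells, all 11 in cells with an MMP1 UMI. Assignment of reads between these related genes was not tested.

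The gene of plasminogen activator inhibitor type 2, SERPINB2, was also under 20 CPM, with 66 UMIs in 43 D0 cells and 392 UMIs in 218 D21 cells, a ratio of 5.95 (4.57 to 7.84). A single D21 cell held 52 of the 392. Of its UMIs, 18.2% in D0 and 30.1% in D21 were in cells with an MMP1 UMI, which made up 3.42% and 20.4% of the cells. Such cells below 1000 CPM of MMP1 had a median of 29426 UMIs in D0 and 14733 in D21. Cells with no MMP1 UMI had 18720.5 and 11655.5, and the part of depth in the SERPINB2 shares was not tested.

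The cytokine gene IL1B, looked up among the inducers of metalloproteinases and named after its values were seen, was under 20 CPM too, with 42 UMIs in D0 and 685 UMIs in D21, a ratio of 16.3 (11.96 to 22.9).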
